A study of Mus musculus with 8 samples.

Results

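The 9 genes described here mark immature neurons and the granule neurons of the cerebellum. They were measured in RNA from brain endothelial cells (ECs). The genes were *Pax6*, *Zic1*, *Barhl1*, *Neurod1*, *Neurod2*, *Dcx*, *Tubb3*, *Cntn2* and *Cbln1*. They are 9 of the 49315 genes in the count files, found there by Ensembl identifier and matched to a symbol. They were listed after results of the mutant and wild-type comparison had been seen, and the values that chose them were their lower levels in the mutant libraries. Their values between the groups are therefore given as a description. Where results of the fit across all genes are counted for them, those counts are a description too and no test of these genes.

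Granule neurons are the most numerous neurons of the brain. In the first postnatal weeks of the mouse their precursors divide in the external granule layer at the surface of the cerebellum, just under the meninges, and the newborn neurons then extend axons and migrate inward. *Pax6*, *Zic1* and *Barhl1* encode transcription factors of this lineage, *Neurod1* and *Neurod2* drive neuronal differentiation, *Dcx* and *Tubb3* encode parts of the neuronal cytoskeleton, and *Cntn2* (TAG-1) marks axons of newborn granule cells.

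The study asked how an activated *Map2k1*, which encodes a kinase of the MAPK pathway, alters ECs in a mouse model of arteriovenous malformation. The 4 mutant libraries came from R26 GT-Map2k1-GFP/+; Tg-Cdh5CreER+/- pups, in which Cre recombination turns on an allele at the *Rosa* locus that encodes MAP2K1 (K57N). The 4 wild-type libraries came from pups of the same litters, and pups of both groups received 100 µg of tamoxifen at P1. At P9 brains were digested with collagenase, ECs were captured with beads against the surface protein CD31, and each pup gave 1 library. The Cdh5 promoter limits Cre to ECs, recombination reached only some of them, and the transgene was expressed above the level of the endogenous gene, so a mutant library mixed recombined and unrecombined ECs. Unbound cells were washed off, and no further sort is described.

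The libraries held 24833373 to 34196955 counts on genes. *Map2k1* lay between 428 and 631 CPM (counts scaled to library size by the TMM method) in the mutant libraries and between 50.7 and 59.4 CPM in the wild-type libraries, as labelled. The summed level of 10 pan-endothelial genes was 11524 to 14840 CPM over all 8 libraries, so every library carried strong endothelial markers. Of 16887 genes tested by the quasi-likelihood method of edgeR, 14% differed, with 8.05% lower and 5.9% higher in mutant ECs. To be called, a gene needed a log2 fold change beyond 1 in either direction and an adjusted p (Benjamini-Hochberg) under 0.05.

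All of the genes but *Zic1* were rare transcripts in these libraries. Without *Zic1*, the 8 others summed to 52.8, 15.0, 97.1 and 8.60 CPM in wild types 1 to 4, and to 3.20, 3.46, 7.92 and 9.53 CPM in mutants 1 to 4. Wild types 1 and 3 stood far above the other libraries. Wild type 4 lay within the range of the mutants. Fewer granule neurons among the captured cells and less of these RNAs per cell cannot be told apart in such bulk libraries.

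Per kilobase of transcript, *Zic1* was the most abundant of the 9 genes in 8 of 8 libraries, with 6.61 ± 3.94 FPKM (SD, n = 4) in wild-type and 4.02 ± 1.06 FPKM (SD, n = 4) in mutant ECs. *Tubb3* came second in 7 of 8 libraries, with 3.36 ± 1.86 FPKM (SD, n = 4) in wild type and 1.21 ± 0.392 FPKM (SD, n = 4) in mutant. Next among wild types were *Neurod1* at 2.40 ± 2.64 FPKM (SD, n = 4) and *Cntn2* at 1.35 ± 1.38 FPKM (SD, n = 4). The means of *Barhl1*, *Pax6*, *Dcx*, *Cbln1* and *Neurod2* were 0.718, 0.526, 0.502, 0.447 and 0.436 FPKM. The SD was about as large as the mean for the 7 genes below *Tubb3*. This spread between pups was largely shared by the genes, so it does not rank them within a library. *Neurod1* was above *Cntn2* in every library.

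**Figure D1:**
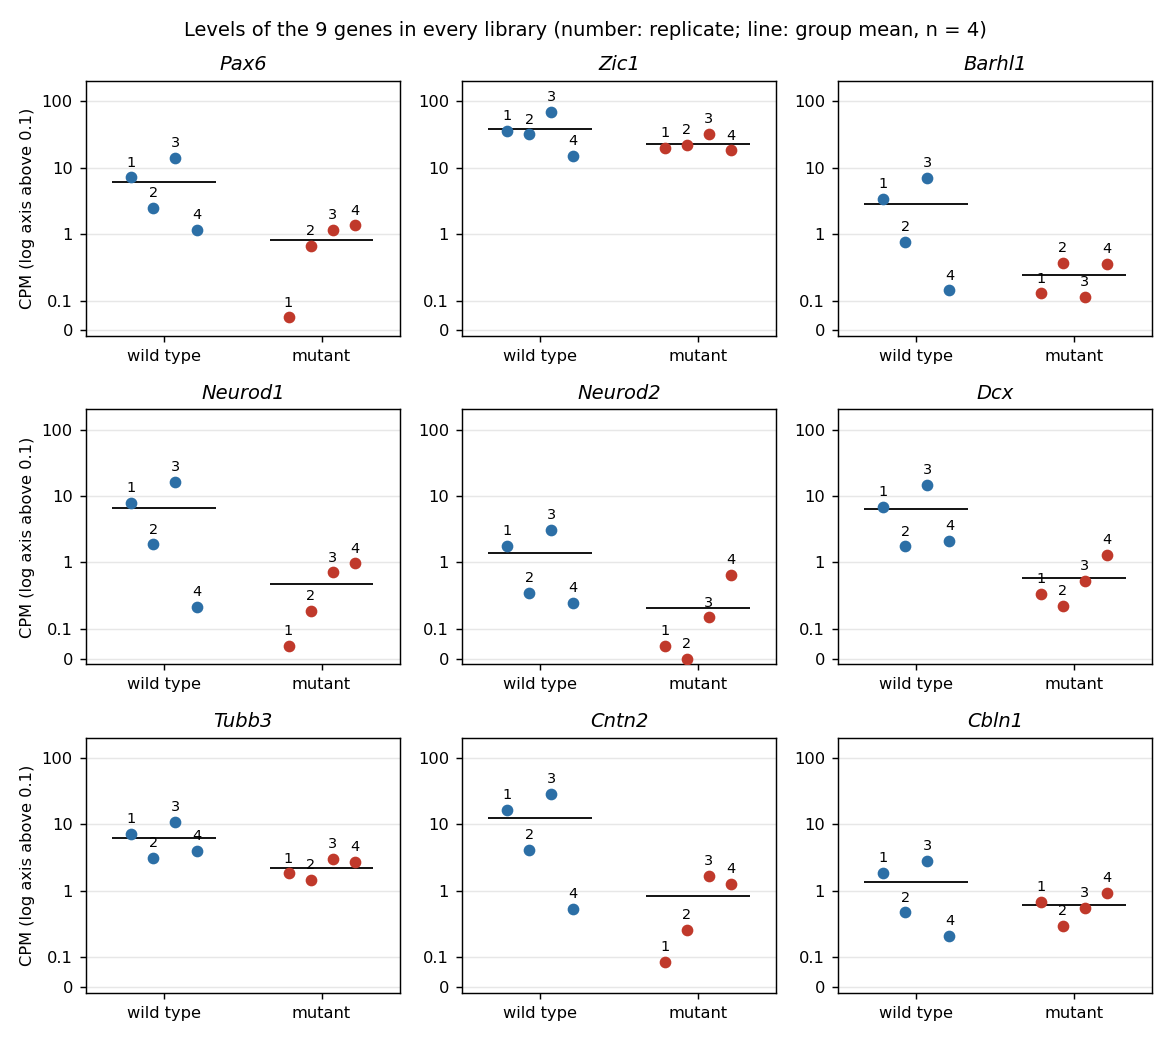
Level of each of the 9 genes in every library, in CPM on an axis that is logarithmic above 0.1 and linear below. Points are single libraries with their replicate number and the lines are group means (n = 4); wild types 1 and 3 lie above all mutant libraries for all 9 genes, whereas wild type 4 falls among or below the mutants except for *Dcx* and *Tubb3*.

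Transcription factors of the granule lineage were described first. *Pax6* (ENSMUSG00000027168, chr2:105668900-105697364, plus strand, GRCm38) encodes a paired-box factor that granule precursors need. Its level was 7.11, 2.502, 13.8 and 1.14 CPM in wild types 1 to 4 and 0.0427, 0.671, 1.16 and 1.35 CPM in mutants 1 to 4. Mutant 1 held a single read, and mutants 3 and 4 lay just above wild type 4, so the groups overlapped. The mean was 6.15 ± 5.73 CPM (SD, n = 4) in wild-type and 0.805 ± 0.583 CPM (SD, n = 4) in mutant ECs, and the fitted log2 fold change (mutant minus wild type) was -2.89 with a standard error of 0.80.

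*Zic1* (ENSMUSG00000032368, chr9:91358058-91365810, minus strand) encodes a zinc-finger factor of dorsal neural progenitors that meningeal cells also express. It was counted at 35.5, 31.5, 68.5 and 15.0 CPM in wild types 1 to 4, against 19.8, 22.1, 31.6 and 18.1 CPM in mutants 1 to 4. All 4 mutants were above wild type 4, and mutant 3 was level with wild type 2. With means of 37.6 ± 22.4 CPM (SD, n = 4) and 22.9 ± 6.03 CPM (SD, n = 4), the log2 fold change of -0.72 (standard error 0.37) was the smallest of the 9, and it came to -0.26 without wild type 3. *Zic1* shares 60 exon bases with *Zic4*, which lies on the opposite strand and had at most 196 counts in a library, and whether the counting used the strand is not given in the sources used here.

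*Barhl1* (ENSMUSG00000026805, chr2:28907679-28916668, minus strand) encodes a homeobox factor of migrating granule cells. Wild types 1 to 4 had 3.41, 0.760, 6.90 and 0.142 CPM, and mutants 1 to 4 had 0.128, 0.373, 0.112 and 0.352 CPM. In reads these were 110, 24, 237 and 4 against 3, 10, 3 and 12. Wild type 4 was inside the mutant range, and the other wild types were above it. The log2 fold change was -3.49 with a standard error of 0.97, from means of 2.80 ± 3.08 CPM (SD, n = 4) and 0.241 ± 0.140 CPM (SD, n = 4).

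*Neurod1* (ENSMUSG00000034701, chr2:79452521-79456751, minus strand) encodes a basic helix-loop-helix factor that granule cells switch on as they leave the cell cycle. It was read 256, 59, 554 and 6 times in wild types 1 to 4, or at 7.94, 1.87, 16.1 and 0.213 CPM. In mutants 1 to 4 the reads numbered 1, 5, 19 and 33, or 0.0427, 0.186, 0.709 and 0.968 CPM. Wild type 4 thus lay below mutants 3 and 4 and just above mutant 2. Means were 6.54 ± 7.21 CPM (SD, n = 4) and 0.477 ± 0.435 CPM (SD, n = 4), and the log2 fold change was -3.71 (standard error 1.07). *Cerkl*, on the same strand, shares 201 exon bases with *Neurod1* and had at most 42 counts in a library.

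*Neurod2* (ENSMUSG00000038255, chr11:98325415-98329648, minus strand) encodes the related factor of later differentiation, which cortical neurons also use. Its reads were 58, 11, 106 and 7 in wild types 1 to 4 (1.80, 0.348, 3.09 and 0.249 CPM). Mutants 1 to 4 had 1, 0, 4 and 22 reads (0.0427, 0, 0.149 and 0.645 CPM), and the count of 0 in mutant 2 allows a level of up to 0.112 CPM. Mutant 4 exceeded wild types 2 and 4. The log2 fold change was -2.58 (standard error 0.98), from means of 1.37 ± 1.35 CPM (SD, n = 4) and 0.209 ± 0.297 CPM (SD, n = 4), and the gene no longer passed the filter on low counts without mutant 4, wild type 1 or wild type 3.

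RefSeq start regions on GRCm38.p6, from 250 bases before to 50 after each annotated start, were found for 8 of the 9 genes (all but *Cbln1*). They were searched on both strands for the E-boxes CAGATG and CAGCTG, which basic helix-loop-helix factors such as those encoded by *Neurod1* and *Neurod2* bind, and for TCAGCACC, a core of the site of the repressor REST. The stretches of *Barhl1* and *Neurod2* are shown because each holds an E-box of the forms searched for, in capitals. That of *Neurod1* is shown because the gene varied most among wild types and holds none of the 3 motifs in its region. Other E-box forms were not searched for and stay in lower case. The letters run 5′ to 3′ along the strand of the gene and end at the base before its start in the count files, which for *Neurod1* and *Neurod2* lies upstream of the RefSeq start.
Barhl1, chr2:28916669-28916918, minus strand: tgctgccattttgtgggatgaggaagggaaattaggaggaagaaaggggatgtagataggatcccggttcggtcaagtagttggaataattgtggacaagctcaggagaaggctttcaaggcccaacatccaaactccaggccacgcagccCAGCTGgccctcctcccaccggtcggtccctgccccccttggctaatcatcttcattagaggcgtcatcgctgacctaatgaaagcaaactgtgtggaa
Neurod2, chr11:98329649-98329895, minus strand: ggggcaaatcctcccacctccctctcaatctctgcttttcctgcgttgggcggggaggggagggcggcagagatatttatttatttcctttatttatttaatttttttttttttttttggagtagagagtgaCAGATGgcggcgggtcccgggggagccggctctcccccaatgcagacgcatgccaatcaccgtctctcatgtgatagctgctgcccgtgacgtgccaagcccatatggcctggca
Neurod1, chr2:79456752-79456886, minus strand: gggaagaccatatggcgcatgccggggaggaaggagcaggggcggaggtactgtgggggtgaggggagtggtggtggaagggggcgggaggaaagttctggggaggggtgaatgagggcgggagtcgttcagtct
CAGATG occurred at position -118 from the start of *Neurod2* and in 17.2% of all 32851 start regions of the same length. CAGCTG occurred at position -99 of *Barhl1*, and at -15 of its second annotated start, and in 16.3% of all regions, and TCAGCACC occurred, on the reverse strand, only in the region of *Tubb3* among the 8 genes, and in 1.65% of all regions. These matches are descriptions of the letters and no binding was measured.

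The cytoskeletal genes were the pair whose level in wild type 4 was above that in wild type 2. *Dcx* (ENSMUSG00000031285, chrX:143855842-143933311, minus strand) encodes doublecortin, which binds microtubules in migrating neurons. Its level was 6.86, 1.74, 14.7 and 2.13 CPM in wild types 1 to 4 and 0.341, 0.224, 0.523 and 1.29 CPM in mutants 1 to 4. All 4 mutants were below all 4 wild types, although mutant 4 and wild type 2 were close. Means were 6.35 ± 6.01 CPM (SD, n = 4) and 0.594 ± 0.480 CPM (SD, n = 4), and the log2 fold change was -3.36 (standard error 0.75).

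*Tubb3* (ENSMUSG00000062380, chr8:123411424-123422015, plus strand) encodes the neuronal β-tubulin. It had 7.17, 3.17, 10.8 and 3.98 CPM in wild types 1 to 4 and 1.83, 1.45, 3.02 and 2.70 CPM in mutants 1 to 4. The mutants again lay below the wild types, with mutant 3 near wild type 2. Of the called genes it had the smallest log2 fold change, -1.48 (standard error 0.39), from 6.28 ± 3.48 CPM (SD, n = 4) and 2.25 ± 0.732 CPM (SD, n = 4). *Dcx* and *Tubb3* were the 2 genes of the 9 without overlap between the groups, a pattern that 21.9% of all genes tested showed in the same direction.

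*Cntn2* (ENSMUSG00000053024, chr1:132509427-132543256, minus strand) encodes an adhesion molecule of axons. Wild types 1 to 4 had 16.6, 4.18, 28.8 and 0.533 CPM, and mutants 1 to 4 had 0.0853, 0.261, 1.68 and 1.29 CPM. In reads the highest library, wild type 3, had 990 and the lowest, mutant 1, had 2. Wild type 4, with 15 reads, was below mutants 3 and 4. The log2 fold change of -3.87 (standard error 1.05) was the furthest from 0 of the 9, with means of 12.5 ± 12.9 CPM (SD, n = 4) and 0.829 ± 0.777 CPM (SD, n = 4).

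*Cbln1* (ENSMUSG00000031654, chr8:87468405-87472609, minus strand) encodes a protein that granule cells secrete at synapses with Purkinje cells. It was measured at 1.89, 0.475, 2.85 and 0.213 CPM in wild types 1 to 4, with 61, 15, 98 and 6 reads. In mutants 1 to 4 it had 0.683, 0.298, 0.560 and 0.938 CPM, with 16, 8, 15 and 32 reads. Every mutant was above wild type 4, and 3 of 4 were above wild type 2. Its log2 fold change was -1.13 (standard error 0.68) with means of 1.36 ± 1.24 CPM (SD, n = 4) and 0.620 ± 0.266 CPM (SD, n = 4), moved to -0.47 without wild type 3, and turned to 0.86 without both wild types 1 and 3.

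Of the 9 genes, 6 were called lower in the mutant libraries, where 8.05% of all genes tested were. *Cbln1*, *Zic1* and *Neurod2* were not called. The genes were listed for this contrast, so nothing is read from that count. The median log2 fold change was -2.89, against -0.02 over all genes tested.

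The count of 6 was not kept without wild types 1 and 3. Without both of them 8 genes passed the filter and edgeR called 0 of them, with 1 at an unadjusted p under 0.05. DESeq2 called 1 of 9. With fewer wild types a call is harder for any gene, and the share of all genes then called is not given here. The log2 fold changes were then -1.63 for *Dcx*, -1.46 for *Cntn2*, -1.12 for *Pax6*, -1.06 for *Neurod1*, -0.86 for *Barhl1*, -0.63 for *Tubb3* and -0.0025 for *Zic1*. This removal was chosen after the values were seen. With any single library left out, 6 or 7 of the genes were called, and without wild type 3 alone the log2 fold change was -3.06 for *Cntn2*, -2.74 for *Neurod1*, -2.53 for *Dcx* and *Barhl1*, -2.11 for *Pax6* and -1.08 for *Tubb3*.

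The genes were listed by their difference between the groups, to which wild types 1 and 3 contributed most. How they varied among wild types is therefore not independent of that choice and is given as a description. Wild types 3, 1, 2 and 4, in this order from high to low, gave the ranking of 7 of 9 genes, compared with 4.42% of all genes tested. *Dcx* and *Tubb3* differed only in that wild type 4 was above wild type 2. The order was noticed in these data. Wild type 3 exceeded wild type 4 by 75.7-fold for *Neurod1* (95% counting interval 34.6 to 207), by 54.1-fold for *Cntn2* (32.6 to 97.1) and by 48.6-fold for *Barhl1* (18.7 to 180). The fold was 13.4 for *Cbln1*, 12.4 for *Neurod2*, 12.2 for *Pax6*, 6.87 for *Dcx*, 4.57 for *Zic1* and 2.72 for *Tubb3* (2.19 to 3.39). All 9 exceeded 2-fold, which 6.53% of the genes tested did, and the median of all genes was 0.973. These intervals are exact, compare single libraries and cover counting error only.

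**Figure D2:**
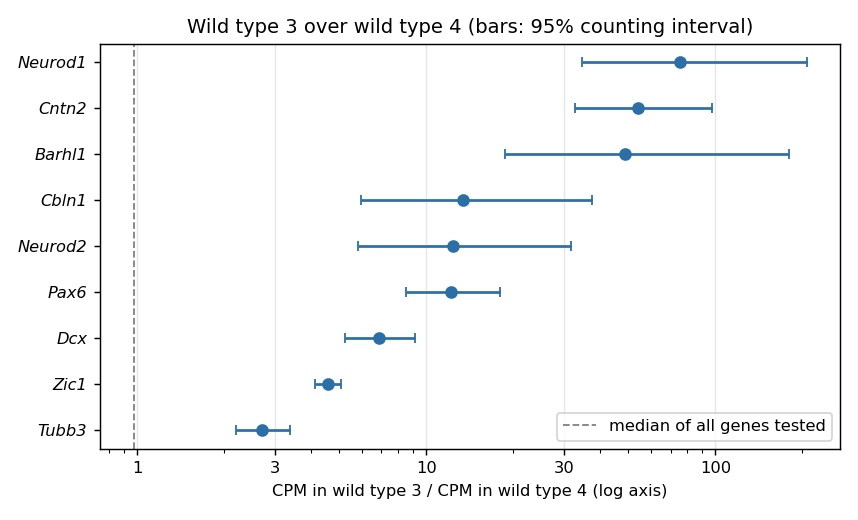
CPM in wild type 3 divided by CPM in wild type 4 for each of the 9 genes, on a logarithmic axis, with exact 95% counting intervals. The ratios run from 2.72 for *Tubb3* to 75.7 for *Neurod1*, and the dashed line marks the median of all genes tested, 0.973.

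On the log2 CPM scale, the SD among wild types was 2.58 for *Neurod1*, 2.49 for *Cntn2* and 2.25 for *Barhl1*, and 0.80 for *Tubb3*. Its median was 1.58 over the 9 genes, 0.17 over all genes tested and 0.36 over the 5219 genes within the abundance range of the 9 genes other than *Zic1*. Among mutants the median SD was 0.96 for the 9 genes and 0.21 for all. Several of the 9 genes had few reads in mutants, and genes of like abundance were not compared there. Among wild-type libraries the 9 genes thus had a larger median SD than genes of like abundance. This larger SD is not independent of how the genes were listed and is given as a description.

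The code of each library in the labels starts with a number that replicates 1 and 2 of both groups share, whereas replicates 3 and 4 each have their own. What it stands for is not given in the sources used here, and the authors state that cell recovery, library preparation and sequencing were done together for all pups. The 9 genes were listed for lower levels in these mutant libraries, so counts of mutants below wild types follow partly from that choice. They are a description, and the shares of all genes beside them are no test. Within replicates 1 and 2, both mutants were below both wild types for 8 of 9 genes, with *Cbln1* as the exception, and for 40.2% of all genes tested. In replicate 3 the mutant was below the wild type for 9 of 9 genes, by 61.6-fold for *Barhl1*, 28.0-fold for *Dcx* and 2.17-fold for *Zic1*, where 49.96% of all genes tested were below. In replicate 4 the mutant was above the wild type for 7 of 9 genes and below it for 2, while 50.5% of all genes tested were below. The mutant exceeded the wild type there by 4.54-fold for *Neurod1* (95% counting interval 1.88 to 13.3), 4.40-fold for *Cbln1* (1.82 to 12.9), 2.59-fold for *Neurod2* (1.07 to 7.19), 2.42-fold for *Cntn2* (1.32 to 4.68) and 1.21-fold for *Zic1* (1.06 to 1.37). For *Barhl1* and *Pax6* the interval included 1. The mutant of replicate 4 was at 0.605 of the wild type for *Dcx* (0.401 to 0.908) and at 0.678 for *Tubb3* (0.509 to 0.901). These intervals compare single libraries and cover counting error only, without the variation between pups. The lower level of these genes in mutants was therefore not seen in every set of libraries.

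Deviations from the group means remove the difference between the groups. Over the 36 pairs of the 9 genes, Pearson's r of these deviations across the 8 libraries lay between 0.55 (*Zic1* with *Neurod2*) and 0.99 (*Cntn2* with *Neurod1*), with a median of 0.81. The median was 0.69 without wild type 4, the lowest over single libraries left out. The libraries are shared by all pairs, so these values describe 8 pups, and the mutant values of several genes rest on few reads. Against the mean profile of the 9 genes, the r of all other genes tested had a median of -0.07, and 5.30% exceeded 0.7.

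**Figure D3:**
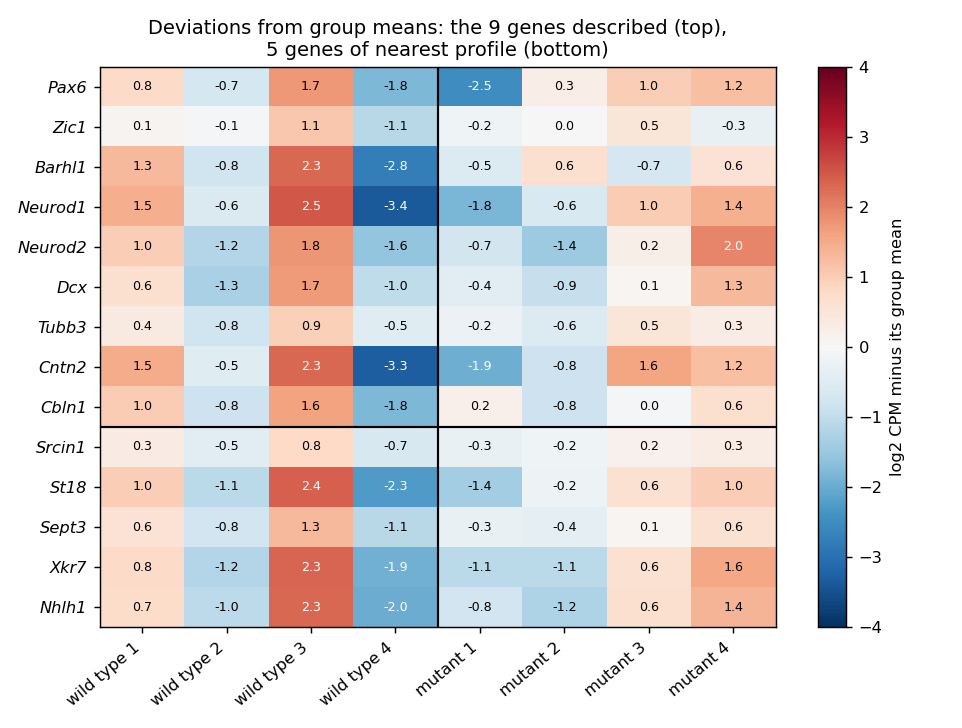
Log2 CPM of each gene minus the mean of its own group, for the 9 genes (top) and the 5 other genes of nearest profile (bottom), in the 8 libraries. Wild type 3 is above and wild type 4 below the group mean in all 14 rows, from -3.4 for *Neurod1* in wild type 4 to 2.5 in wild type 3.

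The 5 other genes whose deviations were most like the mean profile were *Srcin1*, *St18*, *Sept3*, *Xkr7* and *Nhlh1*, with r of 0.990, 0.986, 0.981, 0.978 and 0.978 over 8 libraries. *Nhlh1* encodes a helix-loop-helix factor of newborn neurons and *Sept3* a neuronal septin. *Sept3* had 10.02, 3.96, 16.8 and 3.09 CPM in wild types 1 to 4 and 0.640, 0.596, 0.859 and 1.26 CPM in mutants 1 to 4. *Nhlh1* had 1.99, 0.538, 6.03 and 0.249 CPM in wild types 1 to 4 and 0.128, 0.0745, 0.448 and 0.792 CPM in mutants 1 to 4. Both were lower in mutants, *Sept3* with a log2 fold change of -3.31 (adjusted p = 0.000799, edgeR) and *Nhlh1* with -2.54 (adjusted p = 0.0493, edgeR). *St18*, a zinc-finger factor gene (-3.15, adjusted p = 0.0232), *Srcin1*, which encodes an adaptor of Src signaling (-1.60, adjusted p = 0.00256), and *Xkr7* (-3.58, adjusted p = 0.0247) were also lower. The calls of *Nhlh1*, *St18* and *Xkr7* depended on single libraries, and *Nhlh1* was not called with a replicate block (adjusted p = 0.0722, edgeR), with a block for the library code (0.0638), with DESeq2 (0.0531), with RLE scaling (0.0502) or without genes on X, Y and MT (0.0514). Without wild type 3 the log2 fold change was -1.30 for *Nhlh1* and -1.96 for *St18*, and neither was called, and *Nhlh1* was also lost without wild type 1 or any of mutants 1 to 3, *St18* without mutant 1 or 2 and *Xkr7* without mutant 1, 2 or 3.

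Lists of genes of related cells and stages were then counted in the same fit, beside the 8.05% of all genes that were lower and the 5.9% that were higher. Among 12 granule precursor genes 10 were tested and 6 were lower (median log2 fold change -1.27). *Zic2*, a paralog of *Zic1*, fell from 144 ± 12.8 CPM (SD, n = 4) to 58.4 ± 9.33 CPM (SD, n = 4), or by 1.30 on the log2 scale, with a standard error of 0.12 and an adjusted p of 2.06e-05 (edgeR). *Mycn*, which drives precursor division, fell by 1.36 on the log2 scale (adjusted p = 0.000696, edgeR), and *Boc*, a receptor for Sonic hedgehog, by 1.25 (adjusted p = 0.000994, edgeR). *Zic2* was even among wild types, at 156, 150, 126 and 144 CPM in wild types 1 to 4, and these 3 genes had r of -0.14, 0.30 and 0.17 with the profile of the 9 genes. The other lower genes, *Meis1* and *Barhl2*, named after their values were seen, and *Nhlh1*, had r of 0.93, 0.94 and 0.98, and 5 of the 10 tested exceeded 0.7.

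The precursor factor *Atoh1* was near 0, with 0, 8, 10 and 0 reads in wild types 1 to 4 and 0, 0, 2 and 1 in mutants 1 to 4. *Nhlh2*, the paralog of *Nhlh1*, was among 34 listed genes that did not pass the filter. It had 112, 25, 225 and 5 reads in wild types 1 to 4 and 1, 0, 8 and 8 in mutants 1 to 4. Its wild types were in the order shown by 7 of the 9 genes. *Gabra6*, the receptor subunit of mature granule cells, had at most 4 reads in any library, so this single marker was hardly seen. Other genes of the maturing and mature list did pass the filter.

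Of 14 genes of maturing and mature granule cells, 10 were tested, 3 were lower and 1 was higher. *Reln*, which granule cells secrete, had 11.0, 5.79, 25.5 and 3.13 CPM in wild types 1 to 4 and between 1.83 and 3.14 CPM in mutants, a log2 fold change of -2.29 (adjusted p = 0.00687, edgeR). *Fat2*, a cadherin of granule cells, fell by 3.08 on the log2 scale (adjusted p = 0.0167, edgeR). Both followed the profile of the 9 genes, with r of 0.93 and 0.92 over 8 libraries. Without wild type 3 their log2 fold changes were -1.52 and -2.19. *Cdh15*, which encodes M-cadherin, rose by 1.07 (adjusted p = 0.0195, edgeR) and was not called without wild type 1 (0.95) or 2 (0.92), and *Chn2*, the most abundant per kilobase, was not called (-0.48). None of the 3 decreases was called without both wild types 1 and 3, by edgeR (1 at an unadjusted p under 0.05) or by DESeq2.

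The list of other immature neuron genes held 26 genes, all tested, of which 13 were lower and 3 higher (median log2 fold change -1.19). Of the 26, 18 had an r over 0.7 with the profile of the 9 genes, as 5.30% of all other genes did. *Cntn1*, a relative of *Cntn2*, had 11.1, 9.66, 17.8 and 8.60 CPM in wild types 1 to 4 and 1.66, 2.12, 2.31 and 2.38 CPM in mutants 1 to 4, and fell by 2.47 on the log2 scale (adjusted p = 3.72e-05, edgeR). The 3 higher genes were *Crmp1*, *Dpysl3* and *Map1b*, all of which encode regulators of microtubules or growth cones. *Crmp1* rose from 8.68 ± 4.64 CPM (SD, n = 4) to 98.8 ± 10.8 CPM (SD, n = 4), a log2 fold change of 3.50 (adjusted p = 1.88e-05, edgeR). *Map1b* rose by 1.02 (adjusted p = 5.60e-05, edgeR), at the edge of the limit on the fold (0.94 without wild type 2 and 0.97 without mutant 4), and *Dpysl3*, named after its values were seen, by 1.52 (adjusted p = 0.000259, edgeR). The list therefore held changes in both directions, and *Tubb2a*, the most abundant per kilobase, did not pass the test (-0.09). Without both wild types 1 and 3, 3 of the list were lower and 4 higher.

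Among 31 paralogs and partners of the 9 genes, 21 were tested and 8 were lower. *Cbln2*, a paralog of *Cbln1*, fell by 3.28 on the log2 scale (adjusted p = 5.66e-05, edgeR), from 15.1, 19.2, 15.1 and 11.2 CPM in wild types 1 to 4 to 0.725, 1.97, 2.58 and 0.938 CPM in mutants 1 to 4. *Nrcam*, an adhesion molecule of the immunoglobulin family, fell by 1.88 (adjusted p = 9.64e-05, edgeR). Both genes separated the groups and were even among wild types, unlike *Cbln1* and *Cntn2*. *Tubb5*, the most abundant per kilobase, was not called (0.16).

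**Figure D4:**
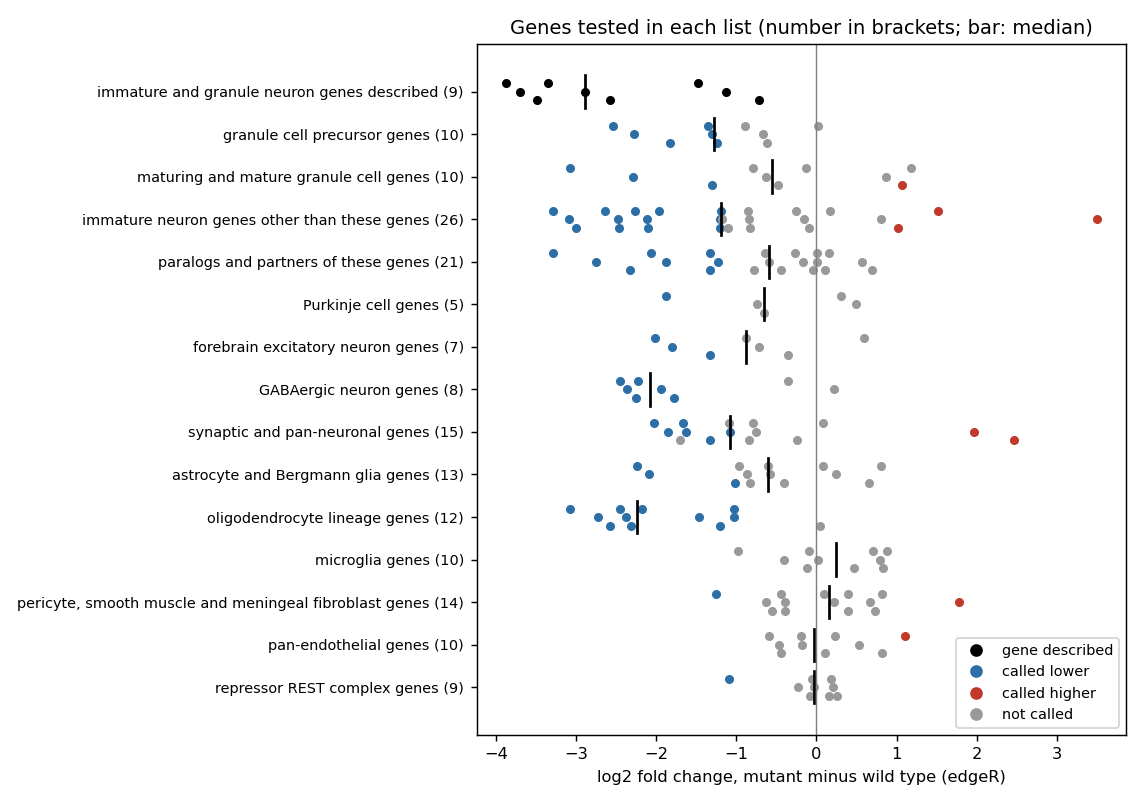
Log2 fold change (mutant minus wild type) of every gene tested in each list, one point per gene, with the median as a bar. The 9 genes described, in black, have a median of -2.89 and were chosen from this contrast; oligodendrocyte lineage genes have a median of -2.24, whereas those of microglia and pan-endothelial genes are 0.24 and -0.03.

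Genes of other brain cells were measured beside the 9 genes. Of 14 GABAergic neuron genes 8 were tested and 6 were lower, including *Gad1*, which makes the transmitter GABA, at 5.96, 5.48, 6.12 and 6.47 CPM in wild types 1 to 4 and 0.555, 1.23, 1.12 and 1.41 CPM in mutants 1 to 4 (-2.46, adjusted p = 3.76e-05, edgeR). The transcription factor genes *Sp9* (-2.25) and *Pax5* (-2.23) fell as well (adjusted p = 0.00188 and 0.00212, edgeR), and *Lhx6*, the most abundant, was not called (0.22). None of the 8 was in the wild-type order shown by 7 of the 9 genes. Of 10 forebrain excitatory neuron genes 7 were tested and 3 were lower, among them *Lhx2* (-1.80) and *Bhlhe22* (-1.32), with adjusted p of 0.00255 and 0.00644 (edgeR). *Bhlhe22* was not called without wild type 3 (-0.99), and 6 of the list were lower without mutant 4. Of 12 Purkinje cell genes 5 were tested and *Foxp2* was lower (-1.87, adjusted p = 0.000606, edgeR; 2 genes without any 1 mutant or wild type 4), and the most abundant, *Itpr1*, had 0.49.

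Synaptic and pan-neuronal genes numbered 16, of which 15 were tested, 6 were lower and 2 higher. *Kif5a*, a neuronal kinesin, fell by 1.85 on the log2 scale, *Syn1* (synapsin) by 1.33 and *Rab3a*, of synaptic vesicles, by 1.08 (adjusted p = 0.000163, 0.00237 and 0.00209, edgeR). The neurofilament genes *Nefl* and *Nefm*, named after their values were seen, rose by 2.46 and 1.96 (adjusted p = 0.00481 and 0.00312, edgeR). *Nrgn*, the most abundant, had 0.08. Of the list 2 were lower without both wild types 1 and 3 and 2 without mutant 1, and 3 without mutant 2 or wild type 3. *Rab3a* was below the limit on the fold without mutant 1 (-0.99) or 2 (-0.97).

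Oligodendrocyte lineage genes were lower with few exceptions. Of 12 oligodendrocyte lineage genes 11 were lower, with *Sox10* (-3.08), *Olig1* (-2.73) and *Mbp* (-2.45) at adjusted p of 3.62e-05, 4.14e-05 and 0.000158 (edgeR). Their summed level was 173 to 424 CPM in wild types and 99.99 to 156 CPM in mutants. Of 14 astrocyte and Bergmann glia genes 13 were tested and 3 were lower, *Sox9* (-2.09), *Fabp7* (-2.24) and *S100b* (-1.01), with adjusted p of 4.96e-05, 0.000336 and 0.0182 (edgeR), and *Gja1*, the most abundant, had 0.80. *S100b* lost its call without mutant 2 or 4 or any of wild types 1 to 3 (-0.85 to -0.97), and it fell just short of the limit on the fold with a block for the library code, with RLE scaling and without genes on X, Y and MT, and 5 of the list were lower without mutant 3 or wild type 4. The part of oligodendrocyte lineage and astrocyte genes in the result was not tested.

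Within groups, the list nearest to the 9 genes outside neurons was that of microglia, the immune cells of the brain. Of its 10 genes 9 had an r over 0.7 with the profile of the 9 genes. Their summed level was 211, 282, 682 and 182 CPM in wild types 1 to 4 and 164, 213, 633 and 495 CPM in mutants 1 to 4. Wild type 3 and mutant 3 were highest and wild type 4 was low, but mutant 3 was close to wild type 3 here, whereas the 8 neuronal genes summed above reached 7.92 CPM in mutant 3 and 97.1 CPM in wild type 3. Of the microglia genes 0 of 10 differed between the groups by edgeR, with 0 at an unadjusted p under 0.05 and 0 by DESeq2. Without mutant 3, 1 of them was lower, and without wild type 3, 4 were higher. Their part in the variation of the 9 genes was not tested.

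Genes of pericytes, smooth muscle and meningeal fibroblasts (14 tested) had 1 lower gene, the meningeal factor *Foxc1* (-1.25, adjusted p = 6.15e-05, edgeR), and 1 higher, *Abcc9* (1.78, adjusted p = 0.000236, edgeR). *Rgs5*, the most abundant, had -0.44. Of 10 pan-endothelial genes, *Cdh5* was higher (1.11, adjusted p = 6.04e-05, edgeR), whereas *Cldn5*, the most abundant per kilobase, had -0.47, and their median r with the profile of the 9 genes was -0.58. The repressor REST silences neuronal genes outside neurons. Of 9 genes of its complex *Rcor2* was lower (-1.10, adjusted p = 0.0123, edgeR; -0.78 and not called without wild type 3) and had an r of 0.80 with the profile of the 9 genes, and *Hdac1*, the most abundant, had 0.26.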

How the data were processed

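RNA of brain ECs from 4 mutant and 4 wild-type P9 pups was measured in 8 poly(A)-selected libraries. The authors trimmed reads with Trimmomatic, aligned them to GRCm38 with STAR and deposited whole-number counts per gene. The counting program, gene annotation and use of strand are not given in the sources used here. A second deposited table, of values normalized by the authors with DESeq2, was not used. Of 49315 identifiers, 49056 matched a symbol in GENCODE vM21.

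The 9 genes, the 14 other lists (204 genes) and the tests were chosen with earlier results of these data known. The comparison used edgeR 4.0.16 in R 4.3.3 (TMM, filterByExpr with a minimum count of 10, glmQLFit, glmQLFTest, no covariate), which uses limma 3.58.1. FPKM is CPM per kilobase of the gene length in the count files. Standard errors are the fitted log2 fold change divided by the root of F. Deviations use log2 CPM with a prior count of 2, and folds between single libraries have exact 95% intervals. From each other list, the called genes of smallest p (up to 3) and the most abundant gene per kilobase are named, besides the 5 genes of nearest profile, overlapping genes and *Map2k1*, and genes named outside this rule are marked. Some genes that the rule names are not reported here. In simulated counts for this comparison (16657 genes tested, 200 changed), 194 changed genes passed the filter, 192 were called, and 2 unchanged genes were called.

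Libraries of 1 group differed beyond sampling noise (chi-square per degree of freedom 7.25 to 41.6 over 12 pairs) and were kept as separate replicates, 1 pup each. Depth gives a floor of 3 counts at 0.0874 to 0.128 CPM. The alternatives were DESeq2 1.42.0, other scalings, filters and thresholds, blocks for replicate number or code, sex chromosomes and mitochondrial genes left out, and libraries left out.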

Additional observations from a re-analysis of the deposited data

Results flagged for a closer look

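Of 46 group values examined, 2 had a library whose gap to its nearest neighbor exceeded the 95% critical value of Dixon's test, and chance gives about 1 in 20. The summed level of the other immature neuron genes was 786 CPM in mutant 4, far from mutants 1, 2 and 3 at 679, 665 and 669 CPM. The summed level of the 9 genes of the REST complex was 696 CPM in wild type 3, below wild types 1, 2 and 4 at 718, 721 and 722 CPM.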

How the results depend on the processing

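Removing wild types 1 and 3 together was an alternative chosen after seeing the data, and with fewer libraries it makes a call harder for any gene. Of the 9 genes 8 then passed the filter, and edgeR called 0 of these lower (1 at an unadjusted p under 0.05). DESeq2 called 1 of 9. The share of all genes called in this setting is not given here. Of the other lists 3 granule precursor, 0 maturing granule (1 at an unadjusted p under 0.05, 0 by DESeq2), 3 immature neuron, 4 paralog and partner, 1 forebrain, 2 synaptic, 7 oligodendrocyte and 0 REST complex genes (1 at an unadjusted p under 0.05, 0 by DESeq2) were lower. Of the immature neuron genes 4 were then higher. Removing both wild types also turned the log2 fold change of *Cbln1* from -1.13 to 0.86. A minimum count of 50, which tests fewer genes, gave 1520 genes in all and 799 lower, with 3 of the 9 genes, 3 precursor, 1 maturing granule, 8 immature neuron, 1 forebrain and 1 GABAergic gene lower. The numbers tested at this filter are not given here, so a gene missing from these counts may not have been tested. An adjusted p under 0.05 alone called 7504 genes, with 22.9% of all genes tested lower and 21.5% higher. Of 5 Purkinje genes tested 2 were then lower and 1 higher, and of 10 pan-endothelial genes 3 were lower and 3 higher. Both DESeq2 and no filter on low counts gave 5 maturing granule and 3 Purkinje genes lower, and leaving out genes on X, Y and MT gave 3 synaptic genes lower. The cause of these changes was not tested. With 1 library left out at a time, 2168 to 2662 genes were called, 1178 to 1604 of them lower. The lower genes then numbered 1 to 2 for Purkinje cells, 2 to 6 for forebrain (6 without mutant 4), 2 to 8 for synaptic genes (2 without mutant 1, and 3 without mutant 2 or wild type 3), 2 to 5 for astrocytes (5 without mutant 3 or wild type 4), 0 to 1 for microglia (1 without mutant 3) and 0 to 1 for the REST complex (0 without wild type 3). Without wild type 3, 4 microglia genes were higher. The median r between the 9 genes ran from 0.69 (without wild type 4) to 0.87. Of 143 alternative values for the log2 fold changes of the 9 genes, 135 moved by less than the SD between replicates, and of 814 for the other named genes 768 kept their direction and side of the threshold, while 46 kept their direction and missed it.

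Replicate numbers are shared between the groups. Same-numbered mutants and wild types deviated together with r of 0.20, 0.21, 0.29 and 0.02 over the genes tested. Mutants 1 to 4 were most like wild types 1, 1, 3 and 3. The paper chose wild-type pups to match mutants by litter, but libraries are not tied to litters in the sources used here. The numbers were not taken to pair pups, although these values do not exclude a match. With the replicate block 2431 genes were called, 1399 of them lower, and 6 of the 9 genes were called. With a block for the leading number of the library code 2456 genes were called.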
